A study of Sus scrofa with 4 samples.

Results

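The genes described here are the coactivators and chromatin enzymes that act on RNA polymerase II promoters and enhancers: the acetyltransferases CREBBP and EP300, the nuclear receptor coactivators (NCOA), the histone lysine methylases and demethylases (KMT and KDM), the Mediator subunits (MED), and the ARID and SMARC proteins of SWI/SNF and related remodellers. They were chosen by gene symbol, from these family prefixes and the names CREBBP and EP300, which picked 86 of the 26921 loci in the deposited tables. The rule used no measured value, although the genes were chosen with earlier results of these data known. All 86 passed the low-count filter and were tested.

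RNA came from cultured cells of pig testis labelled as immature spermatogonia. There were 2 libraries of cells with knockdown of the transcription factor ZBTB16 and 2 of control cells labelled WT. The study's design plans a short hairpin RNA against ZBTB16, carried by a lentivirus into primary cells. The labels do not say whether control cells received a vector, so the virus and the knockdown cannot be told apart. They describe the RNA as coming from 2 independent experiments, and give no age of the donor animals.

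CREBBP and EP300 acetylate histones at enhancers and promoters, and DNA-bound transcription factors recruit them, often through NCOA proteins. Mediator is a large complex with head, middle, tail and kinase modules that bridges such factors to RNA polymerase II. KMT2 enzymes methylate histone H3 at active promoters and enhancers, KDM enzymes remove methyl groups, and SWI/SNF complexes move nucleosomes with the energy of ATP. ZBTB16 marks undifferentiated spermatogonia and is known as a repressor that binds corepressor complexes.

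The knockdown libraries held 18500447 and 16548342 expected counts, and the control libraries 17283536 and 15983390. ZBTB16 itself was at 1.37 and 1.34 FPKM (fragment counts scaled by transcript length and library size) in knockdown cells, against 1.77 and 1.76 FPKM in control cells. Its log2 fold change, knockdown over control, was -0.36 ± 0.109 (SE, edgeR adjusted p = 0.00338, 2 libraries per group), but DESeq2 did not call it (adjusted p = 0.109). ZBTB16 therefore remained at 0.779 of its control level. Squared count differences between libraries of 1 group averaged 1.26 (knockdown) and 1.15 (control) times those of sampling. Between groups they averaged 25.1 to 27.1 times. The median of the same measure over genes was 0.555 (knockdown) and 0.514 (control), against 2.75 to 2.97 between groups. Sequenced fragments averaged 266 and 267 bases in the knockdown libraries, against 326 and 327 bases in the control libraries. Markers of undifferentiated spermatogonia summed to 311 and 308 FPKM in knockdown cells, against 396 and 391 FPKM in control cells, with 9 of 12 at 1 FPKM or more in every library. The lower sum came mainly from CD9 (133 and 138 FPKM in knockdown cells, against 193 and 192 FPKM in control cells) and UCHL1, and the list held 3 genes called higher and 4 called lower. GFRA1, SALL4 and LIN28A, markers of undifferentiated germ cells, were below 1 FPKM in every library. Sertoli cell markers, all 8 at 1 FPKM or more, summed to 2877 and 2848 FPKM in knockdown cells, against 2720 and 2691 FPKM in control cells, and 6 of the 8 were called higher. Leydig markers summed to 170 and 181 FPKM in knockdown cells, against 207 and 204 FPKM in control cells. Most of that sum was CYP11A1, at 144 and 150 FPKM in knockdown cells, against 162 and 158 FPKM in control cells. STAR, CYP17A1 and LHCGR were below 1 FPKM in every library, and of the 6 Leydig markers 1 was called lower and none higher. Macrophage markers summed to 22.2 and 24.0 FPKM in knockdown cells, against 33.0 and 36.9 FPKM in control cells. Markers of differentiating spermatogonia summed to 11.1 and 11.0 FPKM in knockdown cells, against 10.2 FPKM in both control libraries, with STRA8 below 0.1 FPKM. Endothelial markers summed to 9.24 and 8.53 FPKM in knockdown cells, against 10.7 and 9.21 FPKM in control cells. Peritubular markers lay between 5127 and 5230 FPKM in knockdown cells and between 5304 and 5389 FPKM in control cells. Of the 5, 4 were nevertheless called higher and 1 lower (22.7% and 23.8% of all tested genes). The lower sum came from TAGLN, at 1442 and 1418 FPKM in knockdown cells, against 1919 and 1846 FPKM in control cells. Fewer cells of a type and less RNA per cell cannot be told apart in such bulk libraries, and the part of cell makeup in the changes below was not tested. All p-values measure the spread between these libraries alone, which may be technical.

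Of the 86 genes, 39 rose and 17 fell in knockdown cells at an edgeR adjusted p under 0.05, and 30 did not pass. Over all 15763 tested genes 22.7% were called higher and 23.8% lower (46.4% either way). The median log2 fold change of the 86 was 0.10, against 0.00 over all tested genes. The 86 took 0.724% of the counts in both knockdown libraries, against 0.659% and 0.658% in the control libraries. DESeq2 called 30 higher and 9 lower, against 13.8% and 14.5% of all tested genes. Limma on log2(FPKM + 1) without a filter called 24 higher and 11 lower, against 6.09% and 12.9%. Changes were small: 25 of the 86 were called with at least 1.25-fold, against 22.6% of all tested genes, and only MED21 and MED11 passed 1.5-fold.

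Transcript length ran alongside these changes, among the 86 genes and in the whole table. The 86 genes had a median transcript length of 4774 bases, against 3077 bases over all tested genes. Of 15 members of at least 8000 bases, 13 rose and none fell, where 45.0% of all tested genes of that length rose and 4.69% fell. Between 4000 and 8000 bases, 20 of 33 rose and 2 fell, against 34.4% and 10.1% of all such genes. Between 2000 and 4000 bases, 6 of 26 rose and 6 fell, against 18.1% and 21.5%. No member under 2000 bases rose. Of the 10 members between 1000 and 2000 bases 7 fell, against 43.1% of such genes, and both members under 1000 bases fell, against 53.3% (17.9% of genes that short rose). Spearman's rho between log2 fold change and length was 0.69 over the 86 genes and 0.37 over all tested genes, a description across genes that share the same 4 libraries. Libraries with the shorter fragments were those of the knockdown, and the part of fragment length in the pattern was not tested.

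**Figure D1:**
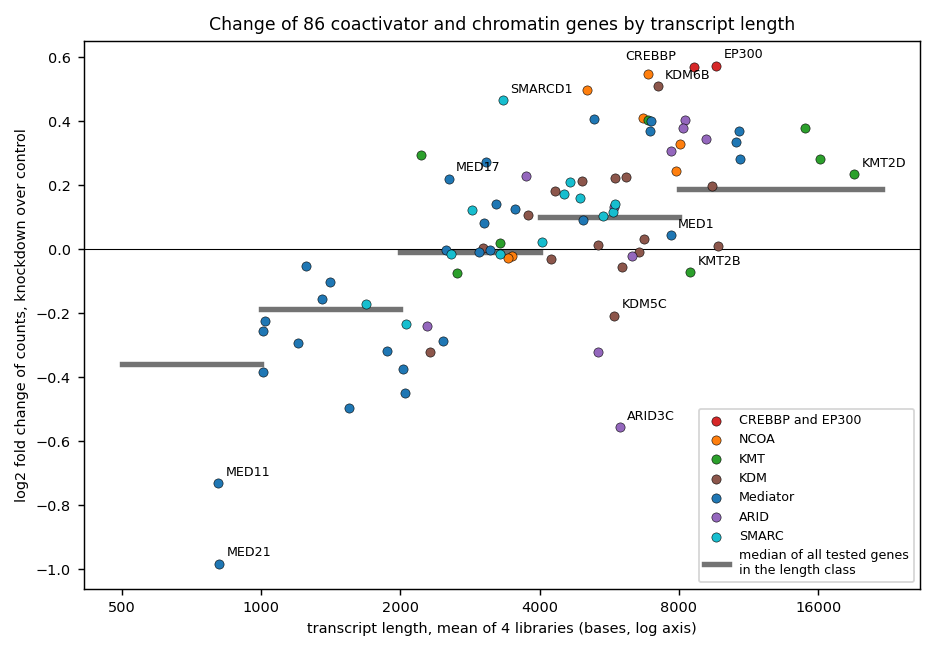
Log2 fold change of counts (knockdown over control) of the 86 genes against transcript length in bases (log axis, mean of 4 libraries), coloured by family. Grey bars give the median of all tested genes in each length class. MED11 and MED21 are the shortest genes and lie lowest, and 13 of the 15 members of at least 8000 bases were called higher.

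Counts were therefore also taken after a smooth trend on transcript length was removed from every library. The trend was fitted to each library's deviation from the gene's mean log2 count over all libraries. A difference between the groups that runs with length is removed with it. In that fit 18.6% of all tested genes were called higher and 22.1% lower, and the rank correlation with length was 0.03 over all tested genes and 0.36 over the 86. Values of that fit are called length-corrected. Of the 86, 26 were then called higher and 20 lower, with a median log2 fold change of 0.01. Of the 39 that rose, 25 were also called higher, and KMT2D was called lower. Of the 17 that fell, 10 were also called lower. Another 9 genes, not called before, were called lower, and KMT5C was called higher. Of the 15 members of at least 8000 bases, 9 were length-corrected higher and 3 lower, against 17.4% and 18.4% of all tested genes of that length. With a trend of GC content removed as well, 22 were called higher and 17 lower, against 16.4% and 23.2% of all tested genes.

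The acetyltransferase pair rose together, with near-equal changes. CREBBP (CREB-binding protein, chr3:38388366-38530243, Sscrofa11.1) was at 22.9 and 23.1 FPKM in knockdown cells, against 15.7 and 15.8 FPKM in control cells. EP300 (p300, its paralogue, chr5:7311165-7394515) was at 25.0 and 25.0 FPKM in knockdown cells, against 17.4 and 16.9 FPKM in control cells. Every knockdown library was above every control library for both genes, as for 29% of all tested genes. The log2 fold change of CREBBP was 0.57 ± 0.0327 (SE, edgeR adjusted p = 3.13e-37), and that of EP300 was 0.57 ± 0.0302 (edgeR adjusted p = 4.73e-41). The length-corrected values were 0.41 for CREBBP and 0.40 for EP300, both still called higher.

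**Figure D2:**
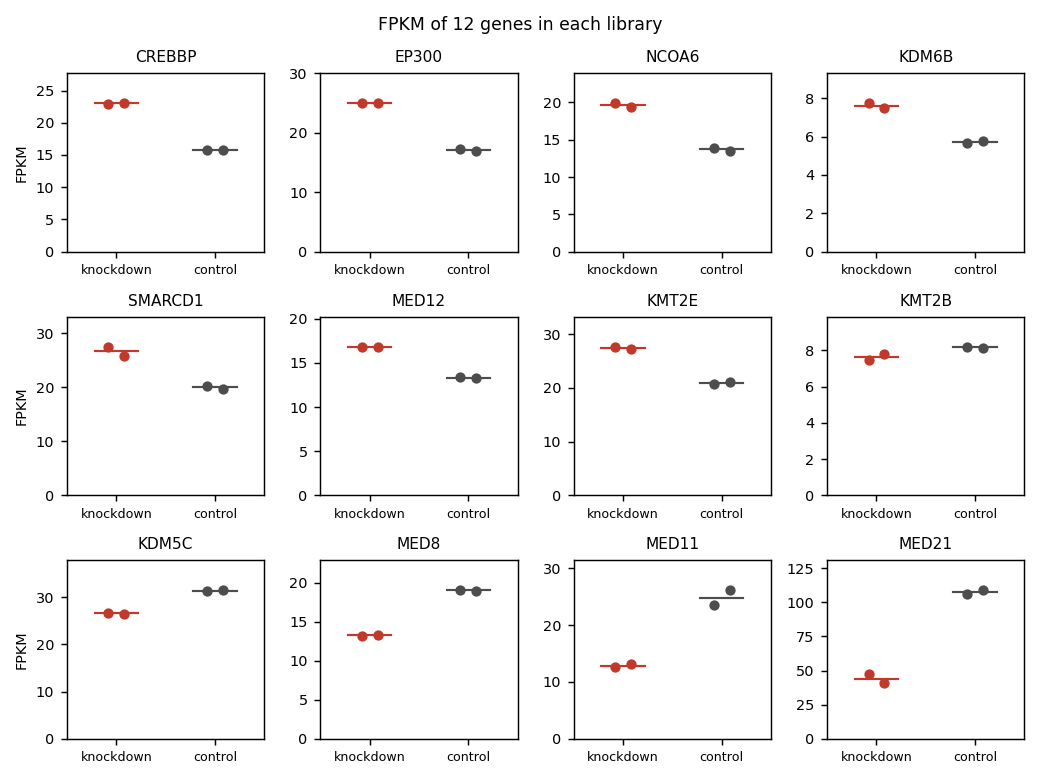
FPKM (vertical axes, each starting at 0) of 12 of the genes in the 2 knockdown libraries (left, red) and the 2 control libraries (right, grey), with the group mean as a line. The groups do not overlap in any panel, where over all tested genes 29% lay fully above in knockdown cells and 41.4% fully below. CREBBP, EP300, NCOA6, KDM6B, SMARCD1, MED12 and KMT2E were higher in knockdown cells, and KDM5C, MED8, MED11 and MED21 lower. KMT2B was not called.

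The promoters of this pair are shown because both genes moved together by the same amount. Each run spans 270 bases before to 30 bases after the RefSeq start (Sscrofa11.1), on the gene's own strand, 5′ to 3′. Capitals mark the GC box GGGCGG and the CCAAT box, read on both strands, so that CCGCCC and ATTGG are the same motifs reversed.
EP300 promoter, chr5:7394486-7394785, minus strand: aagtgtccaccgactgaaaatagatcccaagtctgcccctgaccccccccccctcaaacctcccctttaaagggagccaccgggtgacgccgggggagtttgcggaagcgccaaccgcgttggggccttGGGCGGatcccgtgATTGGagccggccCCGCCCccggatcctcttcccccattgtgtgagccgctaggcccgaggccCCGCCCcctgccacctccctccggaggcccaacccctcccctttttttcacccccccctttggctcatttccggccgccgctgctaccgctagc
CREBBP promoter, chr3:38388096-38388395, plus strand: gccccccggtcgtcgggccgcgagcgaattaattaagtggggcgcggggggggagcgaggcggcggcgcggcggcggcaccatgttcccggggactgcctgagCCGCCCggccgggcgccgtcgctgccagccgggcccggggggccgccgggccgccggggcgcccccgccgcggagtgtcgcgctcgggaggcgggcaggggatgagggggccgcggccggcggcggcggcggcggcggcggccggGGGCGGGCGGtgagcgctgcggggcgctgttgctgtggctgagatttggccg
Both promoters held 3 GC boxes (a pair in CREBBP overlapping), and EP300 a CCAAT box as well. A GC box was found in 57 of the 86 members' promoters (66.3%), against 48.4% of 20624 promoters. A CCAAT box was in 25 (29.1%), against 36.0%. The ETS motif CCGGAAG was in 13 (15.1%), against 9.80%. The NRF1 motif was in 3 (3.49%), against 0.999%, and the cyclic AMP response element TGACGTCA was in 5 (5.81%), against 2.09%. EP300 had 21 CpG dinucleotides and CREBBP 53 in this window, where the median was 22.5 over the members and 14 over all promoters. These are matches of letters, not measured sites.

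Among the nuclear receptor coactivators 5 of 7 rose and none fell (22.7% and 23.8% of all tested genes), with a median log2 fold change of 0.33. The median length of the 7 was 6680 bases, and of all tested genes between 4000 and 8000 bases 34.4% rose and 10.1% fell. NCOA6, a scaffold subunit of the KMT2C and KMT2D complexes, was at 19.9 and 19.3 FPKM in knockdown cells, against 13.9 and 13.5 FPKM in control cells. The log2 fold change of NCOA6 was 0.55 ± 0.0387 (edgeR adjusted p = 1.28e-28). NCOA7, an oxidation resistance protein that also binds the oestrogen receptor, was at 15.7 FPKM in both knockdown libraries, against 11.9 and 11.2 FPKM in control cells (log2 0.50, edgeR adjusted p = 2.01e-18). Every library of the knockdown was above every control library for these 2 genes, as for 29% of all tested genes. The steroid receptor coactivators NCOA1, NCOA2 and NCOA3, which dock CREBBP and EP300 to hormone-bound receptors, rose by log2 0.41, 0.33 and 0.24. NCOA2, the longest of the family at 8051 bases, was at 11.1 and 12.1 FPKM in knockdown cells, against 9.27 and 9.41 FPKM in control cells. NCOA4, which carries ferritin to the lysosome, and NCOA5, the shortest at 3412 bases, had log2 values of -0.02 and -0.03 and were not called. After length correction NCOA1, NCOA2, NCOA6 and NCOA7 were still called higher, and NCOA3 was not (log2 0.08, edgeR adjusted p = 0.0724).

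Of the 5 KMT2 genes, KMT2A, KMT2C, KMT2D and KMT2E rose and KMT2B was not called. Their median length was 14982 bases, and of all tested genes of at least 8000 bases 45.0% rose and 4.69% fell. After length correction 2 of the 5 were called higher and 2 lower, against 18.6% and 22.1% of all tested genes. KMT2E, which has a reader domain for methylated histone H3, was at 27.7 and 27.2 FPKM in knockdown cells, against 20.6 and 21.0 FPKM in control cells (log2 0.40 ± 0.0329, edgeR adjusted p = 2.19e-23). KMT2A, the menin-binding promoter methylase, was at 14.4 FPKM in both knockdown libraries, against 11.4 and 11.0 FPKM in control cells (log2 0.38, edgeR adjusted p = 1.19e-23). Both were still called higher after length correction, at log2 0.25 and 0.12. KMT2C and KMT2D methylate histone H3 at enhancers. KMT2C was at 6.67 FPKM in both knockdown libraries, against 5.75 and 5.37 FPKM in control cells, a log2 value of 0.28 that was 0.01 when length-corrected. KMT2D, the longest of the 86 genes at 19124 bases, was at 8.10 FPKM in both knockdown libraries, against 6.88 and 6.97 FPKM in control cells. Its log2 fold change of 0.23 ± 0.0342 (edgeR adjusted p = 1.41e-09) was -0.09 when length-corrected (adjusted p = 0.0250), a call in the other direction. KMT2B, the paralogue of KMT2A, was at 7.47 and 7.82 FPKM in knockdown cells, against 8.22 and 8.14 FPKM in control cells (log2 -0.07, edgeR adjusted p = 0.225). Length-corrected, KMT2B was called lower, at log2 -0.23 (adjusted p = 1.09e-05). At these lengths the trend rests on few genes: 88 tested genes are at least as long as KMT2A, 55 as KMT2C and 29 as KMT2D.

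The KMT5 enzymes, which methylate histone H4, were not called. KMT5A was at 22.5 and 22.3 FPKM in knockdown cells, against 23.9 and 24.0 FPKM in control cells (log2 -0.07). KMT5B was at 27.4 FPKM in both knockdown libraries, against 29.6 and 28.8 FPKM in control cells, with a log2 value of 0.02 in the count fit that was negative in 6 of the 15 other fits. KMT5C, the shortest KMT gene here at 2215 bases, was at 4.54 and 3.75 FPKM in knockdown cells, against 3.59 and 3.31 FPKM in control cells (log2 0.29 ± 0.138, edgeR adjusted p = 0.0689). Length-corrected, it was called higher (log2 0.36, adjusted p = 0.0238). The count value of KMT5C rested on single libraries: it was 0.15 without knockdown 1 (edgeR adjusted p = 0.516) and 0.42, called higher, without knockdown 2 (0.0265).

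Of the 16 demethylases 6 rose (37.5%), 2 fell (12.5%) and 8 were not called, with a median log2 fold change of 0.02. Their median length was 5811 bases. The shares were close to those of all tested genes between 4000 and 8000 bases, of which 34.4% rose and 10.1% fell. KDM6B (chr12:53087072-53108949), which removes the methyl mark set by Polycomb, was at 7.75 and 7.48 FPKM in knockdown cells, against 5.66 and 5.75 FPKM in control cells. KDM6B had a log2 fold change of 0.51 ± 0.0559 (edgeR adjusted p = 4.72e-15), and 0.35 after length correction. KDM6A, its X-linked paralogue, rose by log2 0.22 (edgeR adjusted p = 0.000247). KDM3A, a demethylase of repressive histone H3 marks needed for sperm maturation in mice, was at 32.8 and 31.9 FPKM in knockdown cells, against 28.3 and 29.1 FPKM in control cells (log2 0.21, edgeR adjusted p = 2.41e-08). KDM6B and KDM3A were the only demethylases called higher after length correction. KDM5C (chrX:45968812-46003215), which removes methyl groups from histone H3 at active promoters, was at 26.8 and 26.5 FPKM in knockdown cells, against 31.4 and 31.6 FPKM in control cells. KDM5C had a log2 fold change of -0.21 ± 0.0326 (edgeR adjusted p = 1.40e-08), and -0.34 after length correction. The other members of the KDM5 group were not called: KDM5A, the longest demethylase gene at 9712 bases, was at log2 0.01 and KDM5B at -0.01. Length-corrected, both were called lower at log2 -0.16, as were KDM2A (-0.19), KDM3B (-0.12), KDM4A (-0.09) and KDM4B (-0.10). With KDM5C, 7 of 16 were then lower and 2 higher, against 22.1% and 18.6% of all tested genes. KDM8, the shortest at 2321 bases, was at 3.54 and 4.19 FPKM in knockdown cells, against 4.83 and 5.36 FPKM in control cells (log2 -0.32 ± 0.124, edgeR adjusted p = 0.0251). The calls of KDM1B, KDM4C, KDM7A and KDM8 were lost in DESeq2 (adjusted p 0.0999, 0.252, 0.153 and 0.246). They were also lost without 1 library: KDM1B without knockdown 2 (edgeR adjusted p = 0.0675), KDM4C without knockdown 1 (0.227) or control 1 (0.403), KDM7A without knockdown 2 (0.0943) or control 2 (0.135), and KDM8 without knockdown 1 (0.267) or control 2 (0.208). Without control 1 the log2 value of KDM4C was 0.10, against 0.18 with all libraries, and without knockdown 1 that of KDM8 was -0.21, against -0.32.

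Mediator changes differed by module, and the modules differed in transcript length. Of the 30 Mediator genes 9 rose, 11 fell and 10 were not called, against 22.7% higher and 23.8% lower among all tested genes. The median length was 10698 bases in the kinase module, 2025 bases in the head and 1355 bases in the middle. Of all tested genes of at least 8000 bases 45.0% rose. Of those between 1000 and 2000 bases 43.1% fell, and between 2000 and 4000 bases 21.5%. All 4 genes of the kinase module and the scaffold MED14 rose, 3 of 5 tail genes rose, and 11 of 16 genes of the head and middle fell while only MED17 rose there. The 4 connecting subunits were not called. After length correction 7 Mediator genes were called higher and 9 lower, and all 9 were head or middle genes. Among all tested genes 18.6% were then called higher and 22.1% lower.

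**Figure D3:**
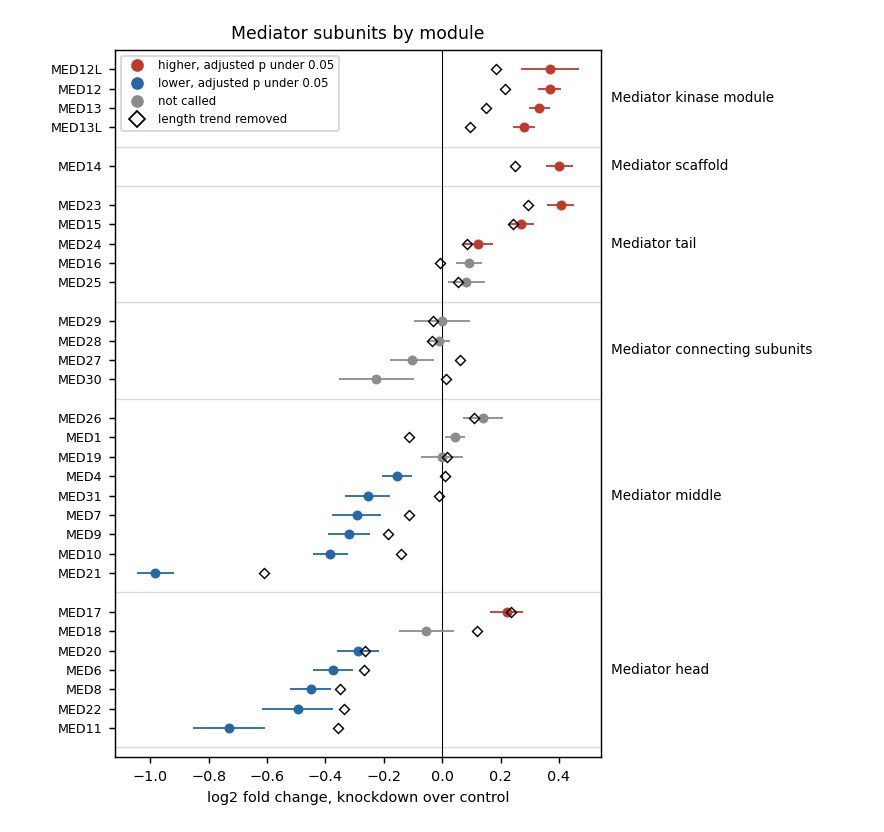
Log2 fold change of counts (knockdown over control, filled points with standard error) of 30 Mediator genes by module, and the length-corrected value (open diamonds). Kinase module genes all lie to the right of 0, and 5 of 7 head genes and 6 of 9 middle genes are called to the left of it.

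In the kinase module, which docks reversibly and carries the kinase CDK8, MED12 was at 16.9 and 16.8 FPKM in knockdown cells, against 13.4 and 13.3 FPKM in control cells (log2 0.37 ± 0.0399, edgeR adjusted p = 1.90e-15). Its paralogue MED12L was low, at 1.57 and 1.42 FPKM in knockdown cells, against 1.18 and 1.19 FPKM in control cells (log2 0.37, edgeR adjusted p = 0.000825, DESeq2 adjusted p = 0.0633). MED13 and MED13L, which link the module to the core complex, rose by log2 0.33 and 0.28. MED13L, with 10850 bases the longest Mediator gene, was at 12.3 and 13.3 FPKM in knockdown cells, against 10.4 and 10.7 FPKM in control cells. Knockdown libraries were above control libraries in FPKM for all 4 genes, as for 29% of all tested genes. After length correction MED12, MED13 and MED13L were called higher, at log2 0.22, 0.15 and 0.09. With the GC trend removed too, only MED12 was (log2 0.27, edgeR adjusted p = 6.67e-08).

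MED14, the backbone that joins head, middle and tail, was at 12.1 and 12.2 FPKM in knockdown cells, against 9.25 and 9.56 FPKM in control cells (log2 0.40 ± 0.0458, edgeR adjusted p = 3.02e-14). In the tail, which contacts activators, MED23 was at 16.2 and 16.0 FPKM in knockdown cells, against 12.3 and 12.2 FPKM in control cells (log2 0.41, edgeR adjusted p = 2.85e-14). MED15 was at 32.1 and 32.3 FPKM in knockdown cells, against 28.3 and 26.2 FPKM in control cells (log2 0.27, edgeR adjusted p = 2.56e-08). These 3 genes were also called higher after length correction, at log2 0.25, 0.29 and 0.24. MED24 rose by log2 0.12 (edgeR adjusted p = 0.0303), was not called by DESeq2 (adjusted p = 0.228), and lost its call without knockdown 2 (log2 0.08, edgeR adjusted p = 0.293), control 1 (0.214) or control 2 (0.0622). MED16 and MED25, the shortest tail gene at 3033 bases, were at log2 0.09 and 0.08 and were not called. MED16 was called higher without knockdown 2 (log2 0.13, edgeR adjusted p = 0.0495). MED25 was at 12.7 and 12.9 FPKM in knockdown cells, against 11.9 and 12.6 FPKM in control cells.

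The head and middle modules, which contact RNA polymerase II, held the largest falls among the 86 genes. MED21 (middle, chr5:46704358-46736434), which pairs with MED7 in the yeast complex, was at 47.3 and 40.6 FPKM in knockdown cells, against 106 and 109 FPKM in control cells. MED21 had a log2 fold change of -0.98 ± 0.0630 (edgeR adjusted p = 2.37e-32), and -0.61 when length-corrected (adjusted p = 7.11e-18). MED11 (head, chr12:52150535-52152366), the partner of MED22 in yeast, was at 12.6 and 13.1 FPKM in knockdown cells, against 23.5 and 26.2 FPKM in control cells. The log2 value of MED11 was -0.73 ± 0.122 (edgeR adjusted p = 8.59e-08), and -0.36 when length-corrected (adjusted p = 0.0121). At 812 and 809 bases they are the shortest of the 86, in a length class whose median over all tested genes was -0.36.

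Their promoters are shown beside those of CREBBP and EP300, with the same window and the same marks. These genes were picked for their changes. Motifs and CpG were not compared between all members that rose and all that fell. MED11 held none of the 5 motifs.
MED21 promoter, chr5:46736405-46736704, minus strand: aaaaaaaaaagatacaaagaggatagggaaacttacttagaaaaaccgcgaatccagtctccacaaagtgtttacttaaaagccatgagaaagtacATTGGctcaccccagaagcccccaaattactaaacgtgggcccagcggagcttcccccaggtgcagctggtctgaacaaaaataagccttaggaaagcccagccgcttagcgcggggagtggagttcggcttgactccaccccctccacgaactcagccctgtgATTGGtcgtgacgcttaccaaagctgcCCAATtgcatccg
MED11 promoter, chr12:52152337-52152636, minus strand: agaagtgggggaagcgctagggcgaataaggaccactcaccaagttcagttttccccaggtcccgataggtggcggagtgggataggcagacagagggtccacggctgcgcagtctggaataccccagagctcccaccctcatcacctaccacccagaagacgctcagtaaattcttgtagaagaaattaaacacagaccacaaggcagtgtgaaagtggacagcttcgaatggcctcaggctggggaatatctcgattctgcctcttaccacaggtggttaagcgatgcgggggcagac
MED21 held 3 CCAAT boxes and no GC box. The windows had 12 and 11 CpG dinucleotides, below the medians of the members and of all promoters.

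MED8, the head subunit that anchors MED18 and MED20 in yeast, was at 13.2 and 13.4 FPKM in knockdown cells, against 19.1 and 19.0 FPKM in control cells (log2 -0.45 ± 0.0698, edgeR adjusted p = 8.81e-09). The head subunits MED22, MED6 and MED20 fell by 0.49, 0.37 and 0.29 on the log2 scale. These 4 and MED11 were also called lower after length correction, at log2 -0.36 to -0.26. MED17, the head's scaffold and its longest gene at 2545 bases, went the other way: it was at 22.3 and 20.8 FPKM in knockdown cells, against 19.2 and 19.4 FPKM in control cells (log2 0.22 ± 0.0554, edgeR adjusted p = 0.000376). Its value was 0.23 after length correction. MED18 was not called (log2 -0.05).

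In the middle module MED10, MED9, MED7, MED31 and MED4 fell by 0.38, 0.32, 0.29, 0.26 and 0.16 on the log2 scale. MED10, a subunit conserved from yeast to mammals, was at 43.8 and 46.4 FPKM in knockdown cells, against 65.2 and 64.0 FPKM in control cells. After length correction MED21, MED9 and MED10 (edgeR adjusted p = 0.0497) were called lower, and so was MED1. With the GC trend removed too, MED10 was not called (log2 -0.09, edgeR adjusted p = 0.231), and 2 of the 9 middle genes were called lower. MED1, the main contact of nuclear receptors and the longest middle gene at 7669 bases, was at 18.1 and 17.8 FPKM in knockdown cells, against 18.4 and 18.6 FPKM in control cells. The log2 value of MED1 was 0.04 (edgeR adjusted p = 0.311), and -0.11 after length correction (adjusted p = 0.00484). MED26, which recruits elongation factors, was at 9.91 and 10.1 FPKM in knockdown cells, against 9.75 and 9.09 FPKM in control cells (log2 0.14, edgeR adjusted p = 0.0871), and MED19 was at log2 0.00. The calls of MED4, MED7 and MED31 were not made by DESeq2 (adjusted p 0.164, 0.101 and 0.111), nor was that of MED20 in the head (0.0536). MED4 lost its call without knockdown 2 (edgeR adjusted p = 0.0771) or control 2 (0.164), and MED7 without knockdown 2 (log2 -0.18, edgeR adjusted p = 0.149) or control 1 (0.0576).

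The connecting subunits MED27, MED28, MED29 and MED30 lay between log2 -0.23 and 0.00. MED30, the shortest at 1018 bases, was at 11.1 and 9.08 FPKM in knockdown cells, against 12 and 14.3 FPKM in control cells (log2 -0.23 ± 0.130, edgeR adjusted p = 0.149). MED30 was called lower without knockdown 1 (log2 -0.41, edgeR adjusted p = 0.0382), and was at log2 -0.08 without knockdown 2, -0.36 without control 1 and -0.09 without control 2. MED29, the longest at 3121 bases, was at 5.01 FPKM in both knockdown libraries, against 5.29 and 5.07 FPKM in control cells. Over the 30 Mediator genes the rank correlation between log2 fold change and length was 0.86, and 0.61 after length correction. Over the other 56 genes it was 0.52 and 0.22.

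Of the 12 SWI/SNF genes 9 rose and 2 fell, against 22.7% and 23.8% of all tested genes. After length correction 6 were called higher and none lower, against 18.6% and 22.1%. With the GC trend removed too, ARID1A, ARID1B, ARID2 and 2 others were called higher and none lower. ARID1A, the most often mutated SWI/SNF subunit in cancer, was at 24.6 and 24.4 FPKM in knockdown cells, against 18.6 and 19.1 FPKM in control cells (log2 0.41 ± 0.0318, edgeR adjusted p = 9.74e-25). ARID1B, its mutually exclusive paralogue, was at 12.8 and 13.5 FPKM in knockdown cells, against 10.4 and 10.7 FPKM in control cells (log2 0.38, edgeR adjusted p = 3.99e-15). ARID2, of the PBAF form of the complex, was at 7.76 and 8.06 FPKM in knockdown cells, against 6.33 and 6.35 FPKM in control cells (log2 0.35, edgeR adjusted p = 2.54e-10). For all 3 the knockdown libraries were above the control libraries, as for 29% of all tested genes. All 3 were still called higher after length correction, at log2 0.24, 0.22 and 0.18. ARID1A made up 54.5% and 53.0% of their summed FPKM in knockdown cells, against 52.7% and 52.9% in control cells.

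The ATPases SMARCA4 (BRG1) and SMARCA2 (BRM), of which a complex holds either, changed little. SMARCA4 was at 38.5 and 39.4 FPKM in knockdown cells, against 37.5 and 36.4 FPKM in control cells (log2 0.10 ± 0.0301, edgeR adjusted p = 0.00234). SMARCA2 was at 21.8 and 21.9 FPKM in knockdown cells, against 20.7 and 20.4 FPKM in control cells (log2 0.12, edgeR adjusted p = 0.00610). Length-corrected, SMARCA4 was at log2 -0.02 and SMARCA2 at -0.01, and neither was called. Neither was called by DESeq2 (adjusted p 0.0566 and 0.0970) or without control 2 (edgeR adjusted p 0.0913 and 0.0765). SMARCA4 held 63.9% and 64.2% of the summed FPKM of the pair in knockdown cells, against 64.4% and 64.1% in control cells.

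The 3 SMARCD genes encode alternative subunits of the same position and moved apart. SMARCD1 (chr5:15992348-16005778) was at 27.6 and 25.8 FPKM in knockdown cells, against 20.2 and 19.7 FPKM in control cells. Its log2 fold change was 0.47 ± 0.0463 (edgeR adjusted p = 1.57e-17), and 0.43 after length correction. SMARCD3 was at 16.4 and 15.3 FPKM in knockdown cells, against 18.7 and 18.4 FPKM in control cells (log2 -0.23 ± 0.0674, edgeR adjusted p = 0.00221). That fall was not called after length correction (log2 -0.13, adjusted p = 0.108), by DESeq2 (0.0978) or without knockdown 2 (log2 -0.19, 0.0625). SMARCD2 was not called (log2 -0.01). SMARCD1 made up 45.0% and 44.8% of the summed FPKM of the 3 genes in knockdown cells, against 35.8% and 35.1% in control cells. SMARCD3 made up 26.7% and 26.5% in knockdown cells, against 33.0% and 32.8% in control cells.

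**Figure D4:**
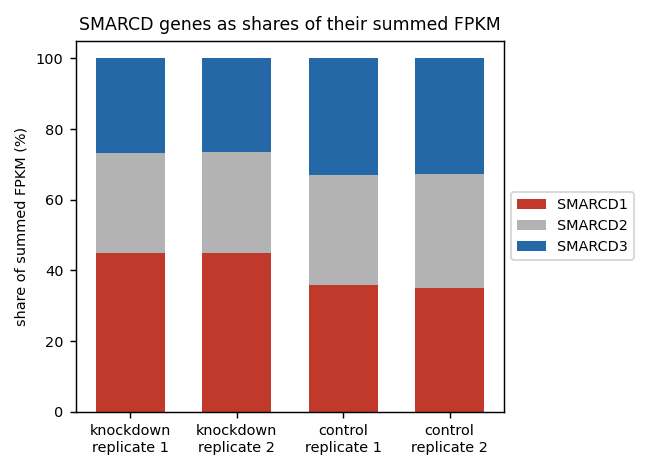
Share (%) of the summed FPKM of SMARCD1, SMARCD2 and SMARCD3 in each library, the 2 knockdown libraries left and the 2 control libraries right. SMARCD1 holds 45.0% and 44.8% in knockdown cells, against 35.8% and 35.1% in control cells.

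The scaffold subunits SMARCC2 and SMARCC1 rose by log2 0.21 and 0.14, and SMARCE1, a DNA-binding subunit, by 0.12. SMARCC1, the longest of this group at 5818 bases, was at 38.4 and 39.4 FPKM in knockdown cells, against 35.8 and 36.2 FPKM in control cells. It was at log2 0.01 after length correction. SMARCB1, the core subunit lost in rhabdoid tumours and the shortest here at 1690 bases, was at 59.9 and 58.6 FPKM in knockdown cells, against 71 and 69.6 FPKM in control cells (log2 -0.17 ± 0.0416, edgeR adjusted p = 0.000233). Length-corrected, SMARCB1 was at log2 -0.02 and not called, while SMARCC2, SMARCD1 and SMARCE1 were called higher. DESeq2 did not call SMARCE1 (adjusted p = 0.0615).

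Among the helicases outside SWI/SNF, SMARCA5, the ISWI motor, was the most abundant, at 72.0 and 73.2 FPKM in knockdown cells, against 66.3 and 67.1 FPKM in control cells (log2 0.16 ± 0.0250, edgeR adjusted p = 1.30e-08). SMARCAD1, a helicase of DNA end resection, was at 18.4 and 18.1 FPKM in knockdown cells, against 16.6 and 16.7 FPKM in control cells (log2 0.17, edgeR adjusted p = 0.000680). Its call was lost without control 1 (edgeR adjusted p = 0.0541) and after length correction (0.0689), where SMARCA5 was called higher at log2 0.07. SMARCA1, the other ISWI motor, and SMARCAL1, an annealing helicase at replication forks, were at log2 0.02 and -0.02 and were not called. SMARCAL1 was at 7.77 and 8.02 FPKM in knockdown cells, against 8.52 and 7.82 FPKM in control cells, so that its groups overlapped.

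Of the 7 ARID genes outside SWI/SNF 2 rose and 2 fell, shares close to the 22.7% and 23.8% of all tested genes. After length correction 1 was called higher and 2 lower, and DESeq2 called 1 higher and none lower. ARID5B, a partner of the demethylase PHF2, was at 30.7 and 29.9 FPKM in knockdown cells, against 25.2 and 24.7 FPKM in control cells (log2 0.31 ± 0.0297, edgeR adjusted p = 3.36e-18), and at log2 0.15 after length correction. ARID5A, an RNA-binding protein that stabilises cytokine mRNAs and the shortest here at 2282 bases, was at 6.66 and 6.18 FPKM in knockdown cells, against 7.88 and 8.01 FPKM in control cells (log2 -0.24, edgeR adjusted p = 0.0349). ARID3C was near the limit of detection, at 0.1 and 0.09 FPKM in knockdown cells, against 0.18 and 0.11 FPKM in control cells, and was not called. ARID4A and ARID4B, which bind the retinoblastoma protein and the SIN3 corepressor, were at log2 0.13 and -0.02. ARID4A was called higher without control 2 (log2 0.22, edgeR adjusted p = 0.0194). ARID4B was called lower after length correction (log2 -0.17, adjusted p = 0.00131). ARID3A fell and ARID3B rose, both at under 5 FPKM in every library, with log2 values of -0.32 and 0.23. DESeq2 called none of ARID3A, ARID3B and ARID5A (adjusted p 0.183, 0.286 and 0.268). ARID3A was at log2 -0.53 without control 1 and at -0.10 without control 2 (edgeR adjusted p = 0.624), and was not called without knockdown 1 (0.0653) or knockdown 2 (0.0899). ARID3B and ARID5A lost their calls without knockdown 2 (0.401 with log2 0.13, and 0.166), control 1 (0.0998 and 0.0635) or control 2 (0.172 and 0.160).

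**Figure D5:**
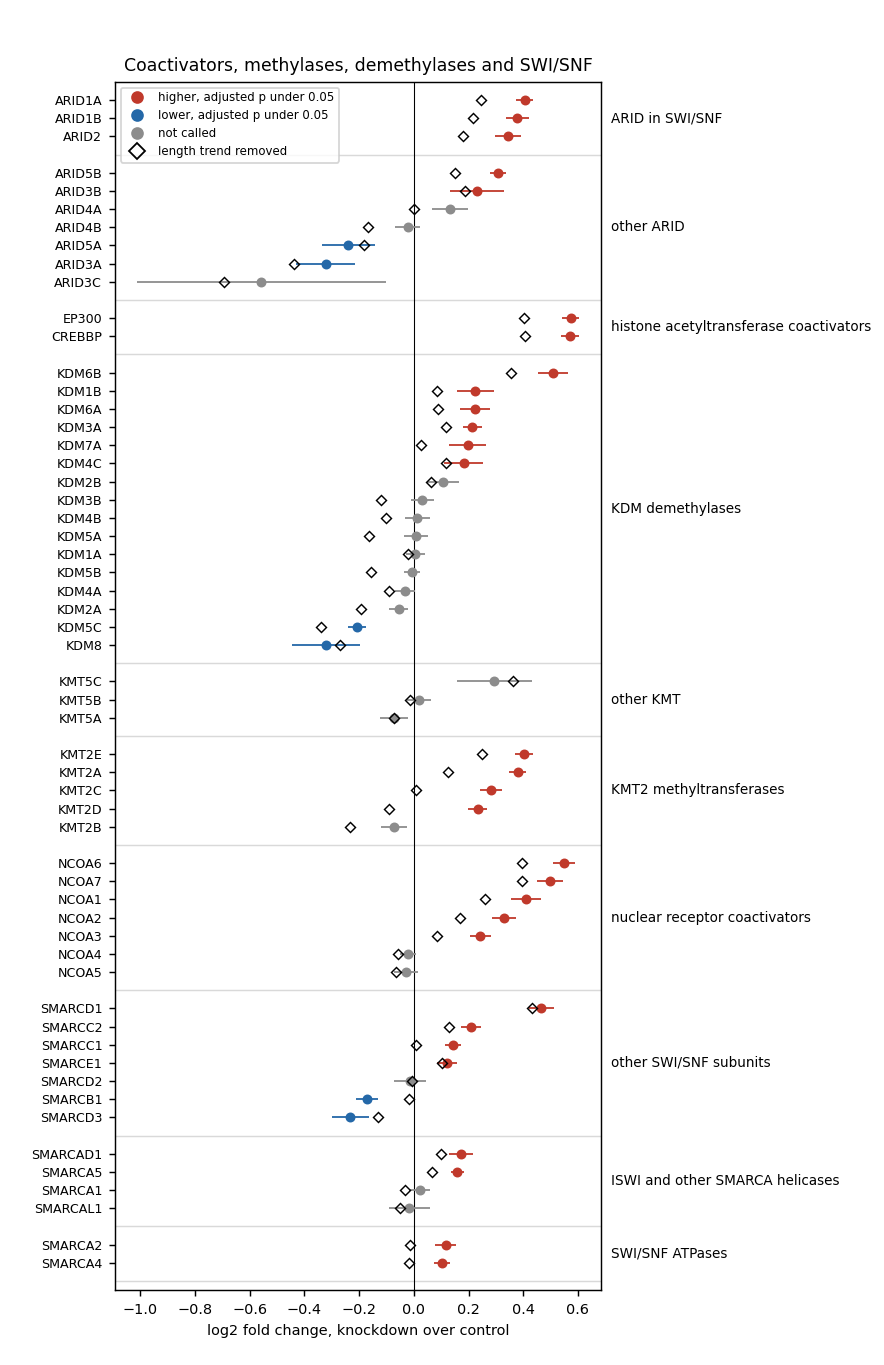
Log2 fold change of counts (knockdown over control, filled points with standard error) of the 56 genes outside Mediator by subfamily, and the length-corrected value (open diamonds). CREBBP, EP300, the ARID subunits of SWI/SNF, NCOA6, NCOA7 and SMARCD1 lie to the right of 0 on both measures, and KDM5C lies to the left on both.

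FPKM was summed to 634962 and 632881 in the knockdown libraries, against 739808 and 742383 in the control libraries. The median log2 fold change of the members was 0.07 with limma on log2(FPKM + 1), against 0.10 in the count fit. That gap differed between genes in size and direction. MED11 was at log2 -0.90 with limma, against -0.73 in the count fit, and KDM4A at -0.016, against -0.032. By FPKM, 44 of the 86 genes had both knockdown libraries above both control libraries, 35 had them below, and 7 overlapped. Over all tested genes 29% were above and 41.4% below. The deposited length of a gene is a mean over its transcripts weighted by their share, so it can shift where isoform use shifts. Among 74 members with more than 1 transcript, the knockdown libraries were above both control libraries in 14 and below in 26, where over all such genes 19.1% were above and 29.8% below. MED21 had 830 and 836 bases in knockdown cells, against 792 and 791 bases in control cells. The length in knockdown cells, relative to control cells, differed by -4.70% in ARID3B, -4.31% in SMARCD3 and -3.54% in KDM2B, and by 4.30% in MED1 and 4.18% in KMT5B.

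Counts of 15 members were not whole in some library, since the counting shared reads with other loci or transcripts; KMT2E, MED12, MED12L, MED31, NCOA3, SMARCA4 and SMARCC1 are among them. In 15 members an exon overlaps a gene on the opposite strand, among them MED12 (IL2RG), MED1 (CDK12), KDM5A and SMARCB1 (DERL3). Whether strand was used in counting is not stated in the sources used here, and reads of such pairs cannot be told apart.

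Genes of the same machinery outside these families were read from 6 lists of subunits and enzymes, of which 74 of 76 were tested. Of these, 35 rose, 9 fell and 30 were not called, against 22.7% higher and 23.8% lower among all tested genes. Their median log2 fold change was 0.12, against 0.00. The median length of the partner genes was 4681 bases, and of all tested genes between 4000 and 8000 bases 34.4% rose and 10.1% fell. After length correction 25 were higher and 13 lower, against 18.6% and 22.1% of all tested genes. Among other acetyltransferases and readers 7 of 12 rose and none fell (5 higher and 1 lower after length correction). BRPF3, a scaffold of histone acetyltransferase complexes, was at 19.8 and 20.1 FPKM in knockdown cells, against 16.6 and 16.7 FPKM in control cells (log2 0.29, edgeR adjusted p = 3.99e-11). Among COMPASS partners 6 of 16 rose and 5 fell (6 and 3 after length correction). SETD1A, a methylase, was at 13.9 and 14.4 FPKM in knockdown cells, against 10.6 FPKM in both control libraries, and PAGR1, a partner of KMT2C and KMT2D, was at 13.1 and 12.3 FPKM in knockdown cells, against 22.5 FPKM in both control libraries. Of the core subunits RBBP5 rose by log2 0.27, and DPY30, WDR5 and ASH2L fell by 0.33, 0.22 and 0.16. Length-corrected, RBBP5 was called higher (log2 0.23) and ASH2L lower (-0.16), and DPY30 (0.11) and WDR5 (-0.07) were not called. ASH2L was not called by DESeq2 (adjusted p = 0.181), without knockdown 1 (log2 -0.09, edgeR adjusted p = 0.278) or without control 2 (0.0677). Among SWI/SNF partners 8 of 16 rose and 2 fell, BCL7C and BRD9 (6 and 3 after length correction). Of the kinase partners CDK8 rose, at 22.1 and 19.7 FPKM in knockdown cells, against 17.2 and 18.8 FPKM in control cells, and CDK19 and CCNC were not called. The log2 value of CDK8 was 0.26, and its call was lost without knockdown 1 (log2 0.17, edgeR adjusted p = 0.0535) and with limma on log2(FPKM + 1) (adjusted p = 0.0791). Other histone methylases rose in 7 of 14 cases with none lower (4 and 2 after length correction). Other remodellers rose in 6 of 13 cases (46.2%), with CHD2 and CHD3 lower (3 and 4 after length correction). The median length of these remodellers was 8844 bases. Their share of rises was close to that of all tested genes of at least 8000 bases, of which 45.0% rose and 4.69% fell.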

How the data were processed

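Messenger RNA of 2 knockdown and 2 control libraries was sequenced on an MGI instrument, per the labels' protocols. Per the labels' protocols, SOAPnuke 2.1.0 served for read filtering, HISAT2 2.2.1 for alignment to Sscrofa 11.1, bowtie2 2.3.5 for mapping to transcripts and RSEM 1.3.3 for counting. The authors deposited expected counts per gene, which RSEM shares among transcripts and need not be whole. They also deposited FPKM, scaled by effective transcript length and library size, and TPM, which the comparisons do not use. Each deposited table gives a length and an effective length, whose difference gave the mean fragment length.

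Rounded expected counts were tested with edgeR 4.0.16 in R 4.3.3 (TMM, filterByExpr with minimum count 10 and total 15, two-sided quasi-likelihood test, Benjamini-Hochberg over 15763 genes, threshold 0.05). "Rose" and "fell" are used of genes called there, and adjusted p-values come from it unless another tool is named. The length trend was fitted per library with mgcv 1.9.3 and entered as an offset. Other fits used DESeq2 1.42.0, limma 3.58.1 on log2(FPKM + 1) or log2(FPKM + 0.1) for genes of at least 1 FPKM in 2 libraries or without that filter, RLE or upper quartile scaling, no count filter, an effective length offset, a replicate block, and each library left out. A fit with length and GC trends removed was chosen after seeing the data. With 2 libraries a group, the smallest two-sided p of an exact permutation test is 0.333, and edgeR instead pools the spread over genes.

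The members, subfamilies and partner lists were chosen with earlier results of these data known. By rule the longest, the shortest and the most raised and most lowered gene of each subfamily were named, with CREBBP, EP300 and ZBTB16; other genes named with values were chosen after these were seen. Coordinates and promoter sequences come from NCBI RefSeq on the same build.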

Additional observations from a re-analysis of the deposited data

How the results depend on the processing

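The count of all genes called was 7319, against 4452 with DESeq2, 4438 with limma on log2(FPKM + 1) without a filter, and 6040 to 6265 without 1 library. Members called higher numbered 39, against 24 with limma without a filter, 22 with length and GC trends removed, and 35 to 38 without 1 library. Members called lower numbered 17, against 9 with DESeq2, 11 with limma without a filter, and 12 to 16 without 1 library. Partner genes called higher numbered 35, against 22 with limma at a pseudocount of 1 or 0.1, 17 without a filter, and 30 to 34 without 1 library. Of all calls 48.8% were higher, against 34.4% with limma at pseudocount 1, where the median of all genes was -0.05, and 41.4% with length and GC trends removed.

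ZBTB16 was not called by DESeq2 (log2 -0.36) or by limma (-0.23 at pseudocount 1, with or without a filter, and -0.36 at 0.1), and lay between -0.39 and -0.34 without 1 library. The median log2 fold change of CREBBP and EP300, 0.57, was 0.52 with limma at pseudocount 1 (with or without a filter), 0.54 at 0.1, 0.60 with the effective length offset, 0.40 length-corrected and 0.45 with length and GC trends removed. NCOA, at 0.33, was at 0.17 length-corrected and 0.16 with GC as well. KMT, at 0.26, was at 0.20 with limma at pseudocount 1, -0.0036 length-corrected and 0.00088 with GC as well. KDM, at 0.02, was at -0.0077 with limma at pseudocount 1, -0.0083 at 0.1, 0.042 with the offset, -0.056 length-corrected and -0.039 with GC. Mediator, at -0.01, was at -0.056 and -0.059 with limma at pseudocounts 1 and 0.1, and 0.012 length-corrected. ARID, at 0.18, was at 0.074 length-corrected and 0.015 with GC. SMARC, at 0.12, was at 0.074 and 0.075 with limma, -0.0051 length-corrected and 0.0017 with GC. Without 1 library these medians ranged over 0.56 to 0.58 (CREBBP and EP300), 0.27 to 0.34 (NCOA), 0.19 to 0.28 (KMT), 0.016 to 0.066 (KDM), -0.025 to -0.00043 (Mediator), 0.11 to 0.23 (ARID) and 0.10 to 0.12 (SMARC).

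Across the 86 members signs reversed in 27 genes. Length-corrected values were -0.00023 (ARID4A), -0.020 (KDM1A), -0.12 (KDM3B), -0.10 (KDM4B), -0.16 (KDM5A), -0.090 (KMT2D), -0.015 (KMT5B), -0.11 (MED1), -0.0058 (MED16), 0.12 (MED18), 0.018 (MED19), 0.059 (MED27), 0.014 (MED30), 0.0098 (MED4), -0.031 (SMARCA1), -0.015 (SMARCA2) and -0.019 (SMARCA4). With length and GC trends removed they were -0.084 (ARID4A), -0.040 (KDM1A), -0.12 (KDM3B), -0.039 (KDM4B), -0.20 (KDM5A), -0.021 (KDM7A), -0.017 (KMT2D), -0.062 (KMT5B), -0.15 (MED1), 0.11 (MED18), 0.066 (MED27), 0.013 (MED30), -0.11 (SMARCA1), -0.021 (SMARCA2), -0.0026 (SMARCA5), 0.0073 (SMARCB1), -0.020 (SMARCC1) and 0.053 (SMARCD2). Limma at pseudocounts 1 and 0.1 gave -0.034 and -0.034 for KDM1A, -0.00049 and -0.00052 for KDM3B, -0.035 and -0.037 for KDM4B, -0.015 and -0.017 for KDM5A, -0.089 and -0.092 for KMT5B, -0.047 and -0.049 for MED1 and -0.025 and -0.026 for SMARCA1. The effective length offset gave 0.035 (KDM4A), 0.0038 (KDM5B), -0.042 (KMT5B) and 0.0013 (MED29), DESeq2 0.0015 (MED19) and 0.0022 (MED29), RLE 0.0019 (MED19) and 0.0016 (MED29), upper quartile 0.0011 (MED19) and 0.00077 (MED29), and no low-count filter -0.0038 (KDM1A) and -2.26e-05 (KDM5A). Without 1 library such genes ranged over -0.073 to 0.029 (ARID4B), -0.0022 to 0.012 (KDM1A), -0.10 to 0.11 (KDM4B), -0.058 to 0.078 (KDM5A), -0.025 to 0.0069 (KDM5B), -0.12 to 0.017 (MED18), -0.012 to 0.0062 (MED19), -0.030 to 0.027 (MED29), -0.016 to 0.053 (SMARCA1), -0.056 to 0.024 (SMARCAL1) and -0.054 to 0.019 (SMARCD2). KDM3B, KDM4B, KDM5A, KMT2D and MED1 passed the test with the sign reversed when length-corrected, and SMARCA1 with length and GC trends removed; the cause was not tested.

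With the replicate number as a block 7480 genes were called, with 39 members higher and 17 lower. The libraries share only a number: same-numbered libraries deviated together with r = 0.0428 over 11060 genes, from 2 pairs. Over the 86 members and 15 alternatives, 1053 single-gene results kept direction and call, 131 lost the call, 20 gained one and 84 changed sign. ARID3C, at no more than 0.18 FPKM, could not be read in either direction at this depth.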
